A study of Mus musculus with 24 samples.

Results

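The 79 cytosolic ribosomal protein genes were followed across the 24 libraries of a mouse melanoma experiment. They were the rows of the count table whose symbol is Rpl or Rps with a number, Rplp0 to Rplp2 or Rpsa, without the S6 kinase genes and without rows marked as pseudogenes. They made up 79 of the 15738 named gene rows, 31 of the small (40S) and 48 of the large (60S) ribosomal subunit, and all 79 passed the low-count filter that left 13527 genes. One of them, Rpl6l, is annotated in GENCODE as a processed pseudogene and had 18 to 83 counts in a library, whereas the next lowest member per length stood far above it.

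The cells were B16F10, an established mouse melanoma line. The 8 groups of 3 libraries each were 4 genotypes, namely control knockout (labelled WT), Rnf31 knockout, Atg5 knockout and the double knockout, each with vehicle or with TNFα at 2 ng/ml for 24 h. The labels call the control cells control knockout cells. The edited position, and whether a line is 1 clone or a pool, is information not given in the sources used here. A difference between genotypes cannot be told apart from a difference between lines. Rnf31 is the catalytic part of the LUBAC ligase, which attaches linear ubiquitin chains in TNF receptor signalling, and Atg5 is needed for the membranes of autophagy. The labels speak of biological replicates without saying whether these were separate cultures, so the p-values rest on the spread among the libraries alone, which may be technical.

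Ribosomal proteins are made in fixed proportions with the ribosomal RNAs, and their messenger RNAs are among the most abundant and shortest of the cell. Most begin with a cytosine and a run of pyrimidines, the terminal oligopyrimidine (TOP) tract, through which mTORC1 and the La-related protein Larp1 set how much of the message is translated and kept. Since the messages are short, the counts for the knockouts are given below with and without a correction for transcript length.

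The tract that names the class stood at a minority of the annotated starts. Of the 79 genes, 58 had an entry in the RefSeq promoter table (GRCm38.p6), with 69 start windows. A cytosine at the annotated first base followed by pyrimidines, in a run of at least 5 bases, was found in 13 of the 69 windows (18.8%) and in 2.51% of all 32851 windows of the table. A run of at least 8 pyrimidines (C or T) anywhere from 40 bases before to 50 bases after the start was present in 79.7% of the windows of these genes and in 32.5% of all. The motif CCGGAAG, or CTTCCGG on the other strand, was in 36.2% of their 300-base windows and in 8.86% of all, and TATAAA, or TTTATA on the other strand, in 8.70% and 13.6%. The tract had to begin exactly at the annotated first base, so one that begins a few bases away was not counted. A match is a description of the letters in these windows. The following 30-base stretches, 10 bases before and 20 from the annotated start on, are shown as examples from the windows that have the tract, whose run from the start is in capitals.
Rps6: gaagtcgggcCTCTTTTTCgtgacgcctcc
Rps27: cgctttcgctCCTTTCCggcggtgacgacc
Rpl35: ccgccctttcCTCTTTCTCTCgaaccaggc
Rpl15: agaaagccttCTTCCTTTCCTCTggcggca
Rpl28: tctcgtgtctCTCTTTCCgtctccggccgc
Rplp2: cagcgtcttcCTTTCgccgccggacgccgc
They lie at chr4:86857348-86857377 on the minus strand, chr3:90213629-90213658 on the minus strand, chr2:39005112-39005141 on the minus strand, chr14:18270967-18270996 on the minus strand, chr7:4792955-4792984 on the plus strand and chr7:141447641-141447670 on the plus strand. The runs are 9, 7, 11, 13, 8 and 5 bases long, in the order shown.

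Libraries held 19425795 to 33385502 counts on named genes. The edited genes are an incomplete check of the labels, since the site of the edit is unknown. With vehicle, Rnf31 was between 8.61 and 10.7 CPM (counts scaled to the library's normalised size) in control and at 7.74, 7.85 and 8.52 CPM in Rnf31 knockout libraries, a log2 difference of -0.28 (SE 0.0997, adjusted p = 0.0211), and with the call lost without control vehicle replicate 1, control vehicle replicate 2, Rnf31 knockout vehicle replicate 1 or Rnf31 knockout vehicle replicate 2 (log2 fold change -0.27 to -0.21, adjusted p = 0.0621 to 0.115). Atg5 was at 50.5, 61.9 and 51.7 CPM in control and at 21.0, 20.7 and 24.9 CPM in Atg5 knockout libraries, a difference of -1.30 (SE 0.0777, adjusted p = 3.43e-14). The 8 melanocyte markers summed to 18221 to 22588 CPM in every library, and 3 fibroblast genes to 4.66 to 12.6 CPM. Control vehicle replicate 2 stood apart from its 2 partners in what follows, and where leaving it out ends a call or moves a value by over 1.5 times, the value without it is given too, for knockouts against control with vehicle. The same was done there for the length correction. Counts of genes called in the other gene lists are given as counted only.

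The 79 genes took a smaller share of all counts in each knockout than in control cells. With vehicle, they held 8.47%, 10.1% and 8.49% of the counts of the 3 control libraries, a mean of 9.02% ± 0.934 (SD, n = 3). The share was 7.54% ± 0.217 (SD, n = 3) in Rnf31 knockout, 7.31% ± 0.161 (SD, n = 3) in Atg5 knockout and 7.01% ± 0.404 (SD, n = 3) in double knockout libraries. No knockout library with vehicle reached the lowest control library, and the high control value is that of replicate 2. With TNFα the means were 8.32% ± 0.139 (SD, n = 3) in control, 7.22% ± 0.243 (SD, n = 3) in Rnf31 knockout, 7.91% ± 0.124 (SD, n = 3) in Atg5 knockout and 7.56% ± 0.393 (SD, n = 3) in double knockout cells. These are shares of the RNA sequenced, in which a fall of these messages and a rise of the others cannot be told apart. The 1111 other genes with transcripts under 1000 bases moved as well, from 7.04% in control to 5.89% in Rnf31, 6.25% in Atg5 and 6.27% in double knockout cells with vehicle.

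**Figure D1:**
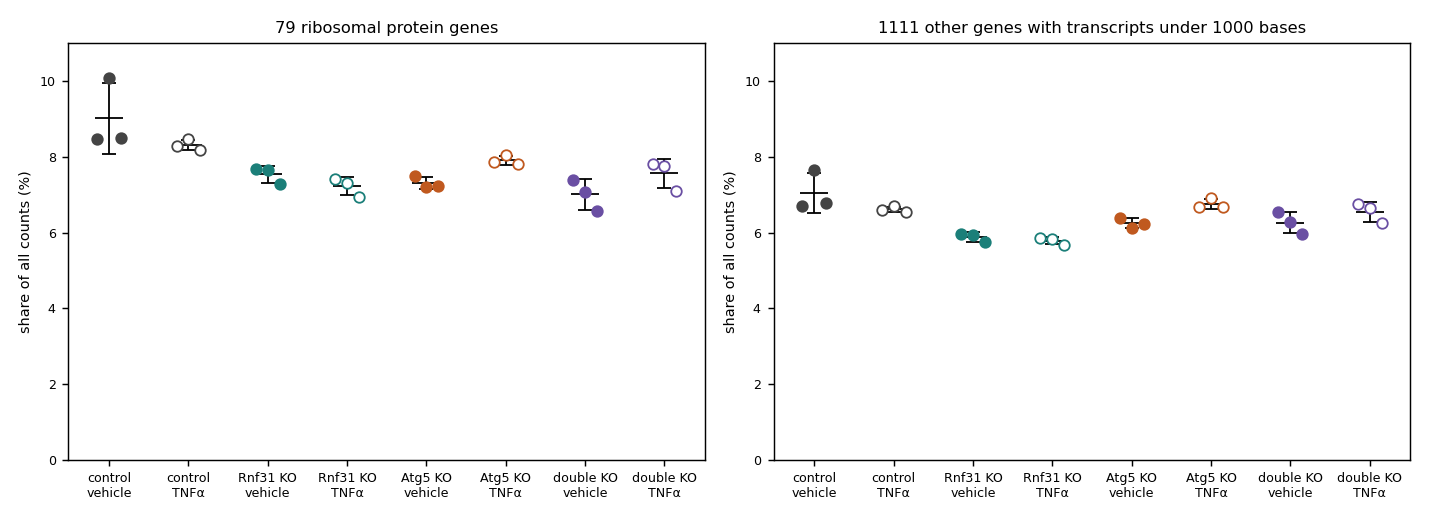
Share of all counts (%, y axis from 0) in the 79 ribosomal protein genes (left) and in 1111 other genes with transcripts under 1000 bases (right), by group. Each point is a library (filled: vehicle, open: TNFα), and bars give the mean and SD of 3. Control vehicle replicate 2 is the highest point in both panels, at 10.1% and 7.64%.

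Nearly all members were lower in each knockout than in control cells with vehicle. In Rnf31 knockout cells 70 of 79 were called lower and 1 higher at an adjusted p under 0.05 (edgeR quasi-likelihood test, adjusted over all genes), where 21.5% of all genes were lower and 24.1% higher. Their median log2 fold change was -0.36. In Atg5 knockout cells 72 were lower and 0 higher, against 30.7% and 31.3% of all genes, with a median of -0.36. In double knockout cells 76 were lower and 0 higher, against 27.2% and 25.3%, with a median of -0.42. The medians of all genes were between -0.0121 and 0.0077. The 3 comparisons share the control libraries. Without control vehicle replicate 2, 58, 63 and 71 members were lower, where 16.3%, 29.1% and 24.2% of all genes were, and the medians were -0.24, -0.23 and -0.30. In the order Rnf31, Atg5 and double knockout, 27, 29 and 30 of the 31 small-subunit genes and 43, 43 and 46 of the 48 large-subunit genes were called lower.

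With TNFα, more members were called lower in Rnf31 knockout cells than in the other knockouts as counted, but not with the correction for transcript length described below, by which 25, 39 and 31 were lower in Rnf31, Atg5 and double knockout cells. The contrast was not itself tested. In Rnf31 knockout cells 58 members were lower and 1 higher than in TNFα-treated control cells, against 14.7% and 17.6% of all genes, with a median of -0.26. In Atg5 knockout cells 13 were lower and 2 higher, below the 29.0% and 29.9% of all genes, with a median of -0.071. In double knockout cells 22 were lower and 1 higher, against 23.1% and 22.6% of all genes, with a median of -0.10. These 3 comparisons share the TNFα-treated control libraries and no vehicle library enters their means, although all libraries share 1 estimate of the spread. When control vehicle replicate 2 was left out, 66, 25 and 35 members were lower, where 16.0%, 30.1% and 24.6% of all genes were. The 15 calls in Atg5 knockout cells were 9 without control TNFα replicate 2 (55.2% of all genes) and 41 when only the groups compared were fitted (62.2%). The 23 calls in double knockout cells were 11 without double knockout TNFα replicate 3 (42.3%) and 37 when only the groups compared were fitted (46.7%).

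The members are short. They had a median annotated length of 878 bases (345 to 5179), whereas the genes tested had a median of 2867 bases. In Rnf31 knockout cells with vehicle, other genes of 500 to below 750 bases had a median log2 fold change of -0.38 and members -0.44. At 750 to below 1000 bases the values were -0.32 and -0.31. In Atg5 knockout cells, members of 750 to below 1000 bases lay lower, at -0.39 where other genes of that length were at -0.18. In double knockout cells the same bin gave -0.42 for members and -0.22 for other genes. The smoothed trend of other genes was lower for shorter transcripts. In Atg5 knockout cells with vehicle it was at -0.37 for 400 bases and -0.15 for 1000 bases. In double knockout cells it was at -0.40 and -0.19. Shorter bins are not given here for these knockouts, so the gap cannot be taken to hold for shorter members. Over the 13273 other genes with a length, Spearman's rho between fold change and length was 0.44 in Rnf31, 0.19 in Atg5 and 0.27 in double knockout cells with vehicle. These are descriptions across genes of the same libraries.

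**Figure D2:**
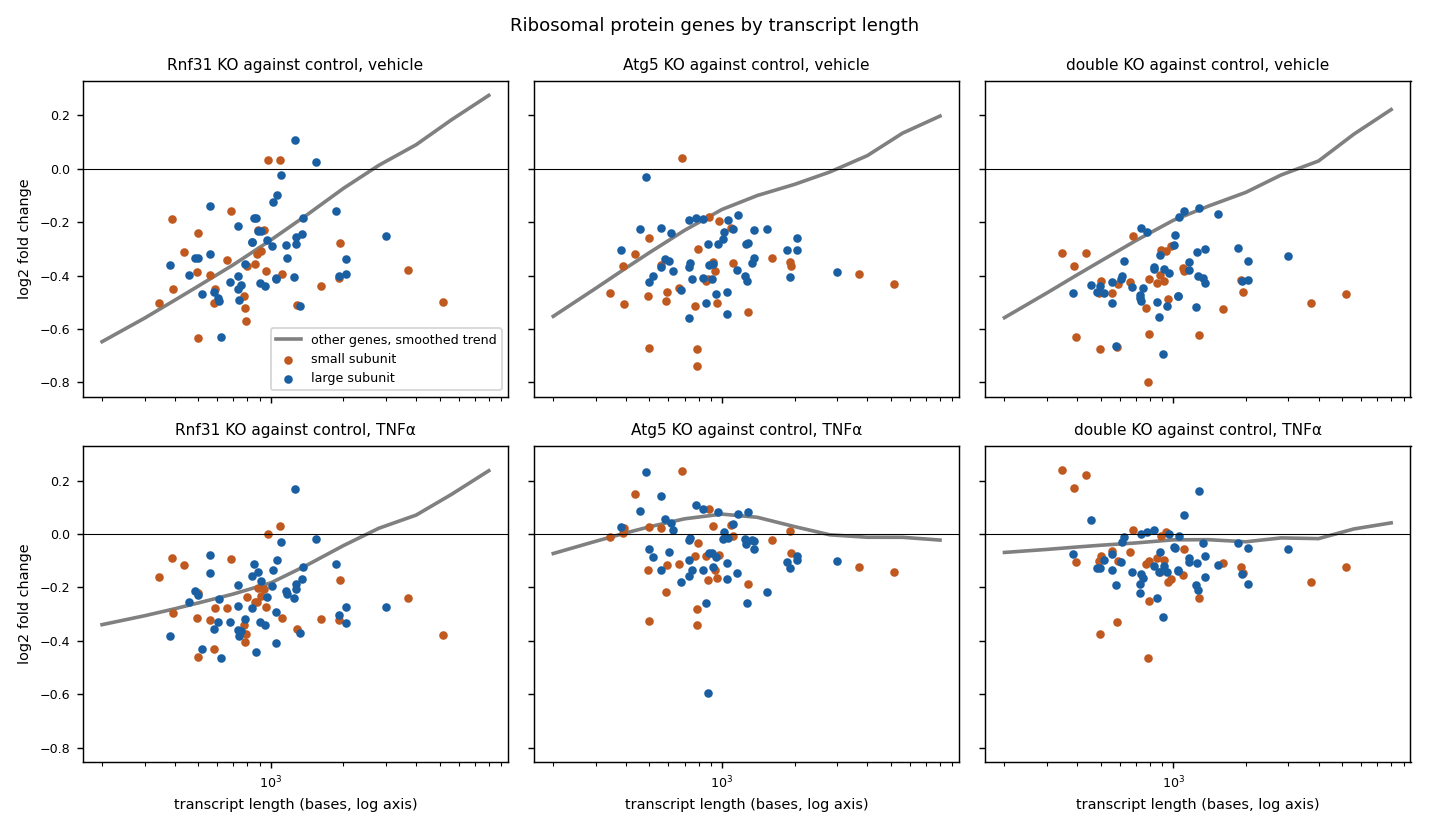
Log2 fold change (y axis) of each of the 79 genes against annotated transcript length (bases, log axis) for each knockout against control, with vehicle (top) and TNFα (bottom). Orange points are small-subunit and blue points large-subunit genes, and the grey line is the smoothed trend of all other genes. With vehicle, most points lie about the line in Rnf31 knockout cells and below it in Atg5 and double knockout cells, where the medians were -0.36 and -0.42.

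When each library's trend over length was removed, the fall shrank in each of the 3 knockouts. In Rnf31 knockout cells with vehicle, 28 members were then lower and 13 higher, against 19.0% and 19.7% of the 13352 genes with a length, and the median was -0.051. In Atg5 knockout cells 55 were lower and 2 were higher, against 31.9% and 30.7%, with a median of -0.17. In double knockout cells 60 were lower and 0 higher, against 25.6% and 24.6%, with a median of -0.18. With TNFα, 25, 39 and 31 members were lower, against 12.5%, 30.7% and 23.3% of all genes, in the order Rnf31, Atg5 and double knockout. The corrected counts of lower members rose in Atg5 and double knockout cells with TNFα, where they had been 13 and 22. The correction rests on annotated models: Rps15a is listed at 5179 bases although another principal model of it has 640, and its corrected value of -0.65 (adjusted p = 3.31e-06) in Rnf31 knockout cells is larger in size than its value as counted, -0.50.

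**Figure D3:**
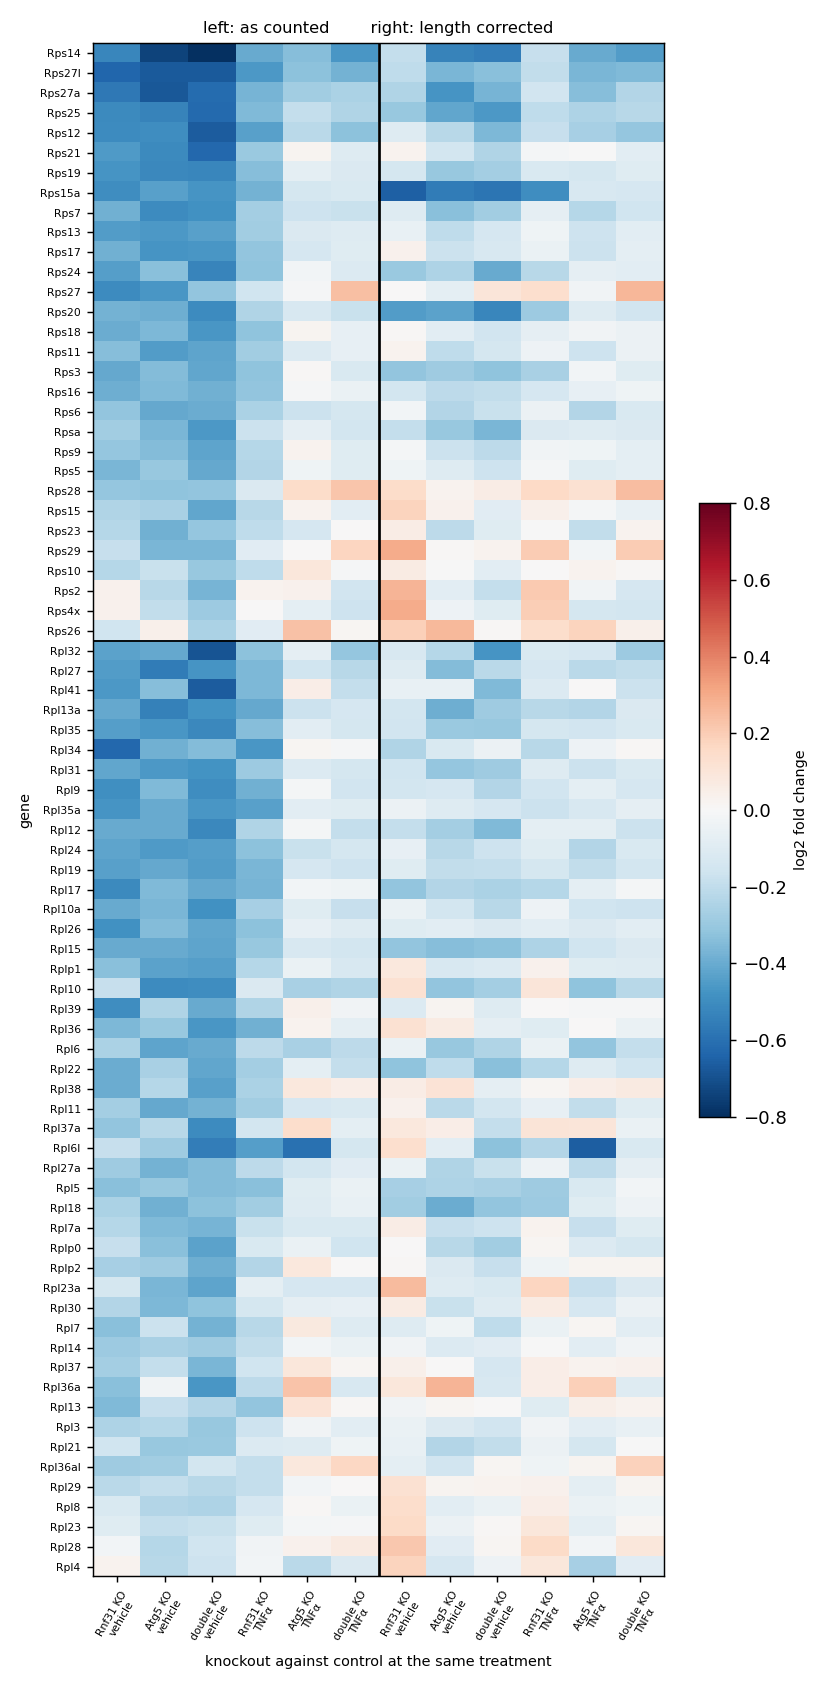
Log2 fold change (colour, -0.8 to 0.8) of the ribosomal protein genes (rows, small subunit above the line, members not reported here left out) in each knockout against control at the same treatment, as counted (left 6 columns) and with length correction (right 6). Most cells of the first 3 columns are blue, and the Rnf31 knockout column with vehicle turns mixed on the right, where 13 of all 79 genes were higher and 28 lower.

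Among small-subunit proteins, Rps14, which helps form the decoding platform, fell the most in Atg5 and double knockout cells. It was at 1362, 1763 and 1388 CPM in control libraries with vehicle. Rnf31 knockout libraries had 1042, 1060.0 and 1039 CPM, Atg5 knockout libraries 932, 867 and 905 CPM and double knockout libraries 924, 868 and 801 CPM. All knockout libraries lay below all control libraries, with replicate 2 the highest control. The log2 fold changes were -0.52 (SE 0.0684, adjusted p = 1.14e-06) in Rnf31, -0.74 (SE 0.0686, adjusted p = 3.26e-10) in Atg5 and -0.80 (SE 0.0686, adjusted p = 1.53e-10) in double knockout cells. With length correction they were -0.19 (adjusted p = 8.43e-05), -0.53 (adjusted p = 1.61e-13) and -0.55 (adjusted p = 1.66e-13). The values were -0.39 (adjusted p = 1.74e-06), -0.61 (adjusted p = 3.73e-11) and -0.67 (adjusted p = 1.17e-11) without control vehicle replicate 2. With TNFα Rps14 was again lower, with log2 fold changes of -0.41 (SE 0.0683, adjusted p = 7.09e-05), -0.34 (SE 0.0683, adjusted p = 1.06e-04) and -0.47 (SE 0.0685, adjusted p = 2.46e-06) in the same order.

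Rps27a, which is translated as a fusion of ubiquitin with a small-subunit protein, was at 1028, 1377 and 1009 CPM in control libraries with vehicle. It was at 772, 775 and 752 CPM in Rnf31 knockout and 732, 705 and 701 CPM in Atg5 knockout libraries, and at 798, 737 and 691 CPM in double knockout libraries. No knockout library overlapped a control library. The fold changes were -0.57 (SE 0.0755, adjusted p = 1.29e-06), -0.68 (SE 0.0756, adjusted p = 1.14e-08) and -0.62 (SE 0.0755, adjusted p = 1.04e-07), and with length correction -0.24 (adjusted p = 1.14e-05), -0.47 (adjusted p = 7.96e-12) and -0.37 (adjusted p = 2.10e-09). Leaving out control vehicle replicate 2, the fold changes of Rps27a were -0.41 (adjusted p = 7.85e-07), -0.52 (adjusted p = 9.72e-10) and -0.46 (adjusted p = 1.99e-08).

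Rps27l, a p53-inducible copy of Rps27, was at 452, 623 and 468 CPM in control libraries and at 328, 349 and 317, 337, 314 and 318 and 351, 314 and 302 CPM in Rnf31, Atg5 and double knockout libraries with vehicle. All 9 knockout values lay below the lowest control value. It fell in all 3 knockouts, with log2 fold changes of -0.63 (SE 0.0823, adjusted p = 1.05e-06), -0.67 (SE 0.0823, adjusted p = 6.04e-08) and -0.67 (SE 0.0824, adjusted p = 1.02e-07), and the length-corrected values were -0.20, -0.37 and -0.33. Leaving out control vehicle replicate 2, they were -0.47 (adjusted p = 1.64e-06), -0.51 (adjusted p = 4.56e-08) and -0.51 (adjusted p = 8.15e-08) on the same log2 scale. Rps27 itself, with the shortest transcript of all members at 345 bases, was also lower with vehicle, with log2 fold changes of -0.50 (SE 0.0988, adjusted p = 1.53e-04), -0.47 (SE 0.0986, adjusted p = 1.83e-04) and -0.31 (SE 0.0985, adjusted p = 0.00864). The value in double knockout cells was -0.13 (adjusted p = 0.194) without control vehicle replicate 2. Leaving out that library moved the other 2 values of Rps27 to -0.32 (adjusted p = 0.00238) and -0.28 (adjusted p = 0.00334). With length correction the values became 0.0023 (adjusted p = 0.980), -0.077 (adjusted p = 0.237) and 0.098 (adjusted p = 0.148). With TNFα, Rps27 was higher in double knockout than in control cells, at 407, 408 and 342 against 330.1, 339 and 311 CPM, a log2 fold change of 0.24 (SE 0.0987, adjusted p = 0.0496), with an adjusted p of 0.0850 by DESeq2. This call was also lost without control TNFα replicate 1, control TNFα replicate 2, control TNFα replicate 3, double knockout TNFα replicate 1 or double knockout TNFα replicate 2 (log2 fold change 0.20 to 0.27, adjusted p = 0.0615 to 0.170). With vehicle the call of Rps27 in double knockout cells was lost as well without double knockout vehicle replicate 3 (log2 fold change -0.22, adjusted p = 0.0842). How reads shared by such copies were divided is not stated in the labels.

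Rps12 and Rps25, of the small subunit, were lower in each knockout at both treatments. With vehicle, Rps12 was at 1126, 1584 and 1171 CPM in control libraries and at 923, 945 and 874, 932, 938 and 882 and 893, 811 and 739.8 CPM in Rnf31, Atg5 and double knockout libraries. All knockout libraries lay below the control libraries. The log2 fold changes of Rps12 were -0.50 (SE 0.0866, adjusted p = 3.60e-05), -0.50 (SE 0.0866, adjusted p = 1.55e-05) and -0.67 (SE 0.0868, adjusted p = 2.91e-07) with vehicle, and -0.43 (SE 0.0866, adjusted p = 4.42e-04), -0.22 (SE 0.0865, adjusted p = 0.0327) and -0.33 (SE 0.0866, adjusted p = 0.00271) with TNFα. With vehicle they were -0.33 (adjusted p = 2.52e-04), -0.32 (adjusted p = 9.95e-05) and -0.50 (adjusted p = 3.16e-07) without control vehicle replicate 2, and -0.10 (adjusted p = 0.0377), -0.22 (adjusted p = 1.39e-05) and -0.36 (adjusted p = 1.04e-08) with length correction. The log2 fold changes of Rps25, a protein used in internal initiation on some messages, were -0.51 (SE 0.0734, adjusted p = 3.75e-06), -0.54 (SE 0.0734, adjusted p = 3.81e-07) and -0.62 (SE 0.0735, adjusted p = 5.90e-08) with vehicle, and -0.35 (SE 0.0733, adjusted p = 6.04e-04), -0.19 (SE 0.0733, adjusted p = 0.0297) and -0.24 (SE 0.0733, adjusted p = 0.00910) with TNFα. The length-corrected value of Rps25 in Rnf31 knockout cells with vehicle was -0.30 (adjusted p = 1.66e-05). With TNFα the call of Rps12 in Atg5 knockout cells was lost without control TNFα replicate 1, control TNFα replicate 2, Atg5 knockout TNFα replicate 1 or Atg5 knockout TNFα replicate 3 (log2 fold change -0.23 to -0.19, adjusted p = 0.0505 to 0.110), and that of Rps25 without control TNFα replicate 2, control TNFα replicate 3, Atg5 knockout TNFα replicate 1 or Atg5 knockout TNFα replicate 3 (log2 fold change -0.19 to -0.17, adjusted p = 0.0645 to 0.0876). In double knockout cells that of Rps25 was lost without double knockout TNFα replicate 3 (log2 fold change -0.17, adjusted p = 0.0790).

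Rps6, the substrate of the S6 kinases, was lower in Rnf31 knockout cells with a log2 fold change of -0.32 (SE 0.0508, adjusted p = 1.39e-05), in Atg5 knockout cells with a log2 fold change of -0.41 (SE 0.0509, adjusted p = 6.59e-08) and in double knockout cells with a log2 fold change of -0.40 (SE 0.0509, adjusted p = 2.11e-07) with vehicle. With length correction its values were -0.019 (adjusted p = 0.624), -0.23 (adjusted p = 1.64e-08) and -0.18 (adjusted p = 2.99e-06), so the call in Rnf31 knockout cells was lost. Rps19, the gene most often mutated in Diamond-Blackfan anaemia, was lower with log2 fold changes of -0.47 (SE 0.0822, adjusted p = 3.71e-05), -0.51 (SE 0.0822, adjusted p = 4.48e-06) and -0.52 (SE 0.0823, adjusted p = 6.00e-06). The length-corrected values of Rps19 were -0.14 (adjusted p = 0.00817), -0.30 (adjusted p = 2.26e-07) and -0.27 (adjusted p = 3.03e-06). Rps3, which also acts in DNA repair, was lower with log2 fold changes of -0.41 (SE 0.0641, adjusted p = 1.10e-05), -0.35 (SE 0.0641, adjusted p = 2.96e-05) and -0.42 (SE 0.0641, adjusted p = 4.21e-06), and Rpsa, the laminin receptor protein of the small subunit, with log2 fold changes of -0.28 (SE 0.0556, adjusted p = 1.91e-04), -0.36 (SE 0.0557, adjusted p = 2.40e-06) and -0.46 (SE 0.0557, adjusted p = 8.48e-08). When control vehicle replicate 2 was left out, Rps3 was at -0.23 (adjusted p = 1.97e-04) in Atg5 and Rpsa at -0.18 (adjusted p = 0.00206) in Rnf31 knockout cells. Rps2 and Rps4x did not pass in Rnf31 knockout cells, with 0.032 (adjusted p = 0.554) and 0.035 (adjusted p = 0.443), and were higher there after length correction, with log2 fold changes of 0.27 (adjusted p = 1.76e-06) and 0.30 (adjusted p = 4.15e-06). Both fell in Atg5 knockout cells, with log2 fold changes of -0.22 (SE 0.0399, adjusted p = 2.38e-05) and -0.20 (SE 0.0346, adjusted p = 1.87e-05), and with length correction these were -0.084 (adjusted p = 0.0455) and -0.043 (adjusted p = 0.399), so the call of Rps4x was lost.

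Rps26 and Rpl36a, of the small and the large subunit, departed from the family in Atg5 knockout cells. With vehicle, Rps26 was at 766, 807 and 725 CPM in control, 773, 825 and 764 CPM in Atg5 knockout and 670.3, 632 and 627 CPM in double knockout libraries. Control and Atg5 knockout libraries overlapped, whereas all double knockout libraries were lower. The difference from control was 0.039 (SE 0.0430, adjusted p = 0.441) in Atg5 knockout and -0.25 (SE 0.0430, adjusted p = 1.76e-05) in double knockout cells. With length correction the call of Rps26 in double knockout cells was lost, at 0.010 (adjusted p = 0.895). Rpl36a was at 174, 210.5 and 173 CPM in control, 179.9, 187 and 180.0 CPM in Atg5 knockout and 143, 139.7 and 123 CPM in double knockout libraries, with the same pattern of overlap. With length correction it was higher in Atg5 knockout cells, at 0.27 (adjusted p = 2.68e-05), as was Rps26, at 0.26 (adjusted p = 1.12e-04). As counted, the differences of Rpl36a were -0.030 (SE 0.0627, adjusted p = 0.696) and -0.46 (SE 0.0633, adjusted p = 6.61e-07), and the latter was -0.13 (adjusted p = 0.0379) with length correction. Leaving out control vehicle replicate 2, Rpl36a was at 0.068 (adjusted p = 0.30) and Rps26 at 0.079 (adjusted p = 0.111) in Atg5 knockout cells. With TNFα both were higher in Atg5 knockout than in control cells, Rps26 with a log2 fold change of 0.23 (SE 0.0431, adjusted p = 3.42e-05) and Rpl36a with a log2 fold change of 0.23 (SE 0.0631, adjusted p = 0.00263). Rpl36al, a near-identical copy of Rpl36a, was lower in Atg5 knockout cells with vehicle, with a log2 fold change of -0.28 (SE 0.0700, adjusted p = 0.00115), which was -0.15 (adjusted p = 0.0227) without control vehicle replicate 2 and -0.16 (adjusted p = 0.00620) with length correction. Reads shared by the pair may be divided in either way.

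**Figure D4:**
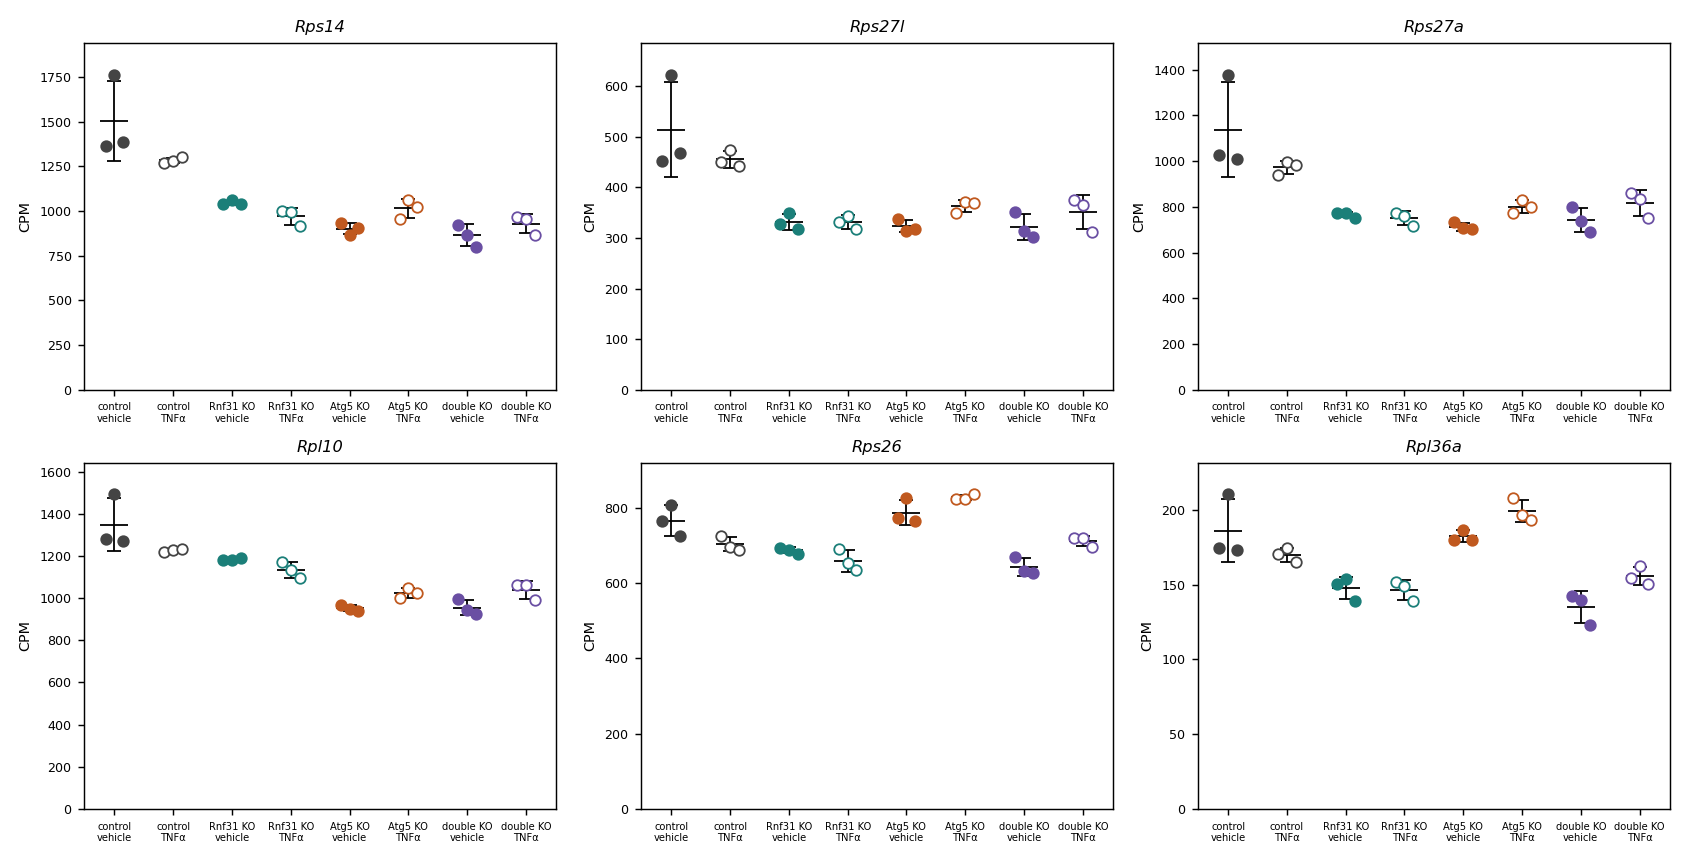
CPM (y axes from 0) of 6 members by group. Points are libraries (filled: vehicle, open: TNFα), and bars give the mean and SD of 3. Rps14, Rps27l and Rps27a are lower in every knockout group, Rpl10 is lowest in the Atg5 and double knockout groups, and Rps26 and Rpl36a were not called lower in Atg5 knockout cells.

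The number of members that differed between the Atg5 and double knockouts varied with the correction and the libraries used. With vehicle, 8 members were lower in double than in Atg5 knockout cells and 0 higher, against 19.8% and 18.2% of all genes, and the median was -0.039. With length correction 12 were lower and 5 higher, against 19.6% and 21.9%, with 7 of the 8 among them. Without control vehicle replicate 2, which is not among the libraries compared, 18 were lower and 1 higher, against 21.3% and 20.3%. Rpl36a had a log2 fold change of -0.43 (SE 0.0633, adjusted p = 3.68e-06), Rpl41, which encodes the smallest ribosomal protein, with a log2 fold change of -0.32 (SE 0.110, adjusted p = 0.0209), and Rps26 with a log2 fold change of -0.29 (SE 0.0431, adjusted p = 4.20e-06). The other 5 called were Rpl37a at -0.28 (SE 0.0772, adjusted p = 0.00473), Rpl32 at -0.28 (SE 0.0851, adjusted p = 0.0101), Rpl7 at -0.21 (SE 0.0543, adjusted p = 0.00350), Rps2 at -0.15 (SE 0.0399, adjusted p = 0.00359) and Rps4x at -0.092 (SE 0.0346, adjusted p = 0.0361), also as log2 fold changes. The call of Rpl41 was lost without Atg5 knockout vehicle replicate 2, Atg5 knockout vehicle replicate 3 or double knockout vehicle replicate 3 (log2 fold change -0.32 to -0.21, adjusted p = 0.0502 to 0.171), that of Rps4x without Atg5 knockout vehicle replicate 1, Atg5 knockout vehicle replicate 2, Atg5 knockout vehicle replicate 3, double knockout vehicle replicate 2 or double knockout vehicle replicate 3 (log2 fold change -0.093 to -0.080, adjusted p = 0.0699 to 0.119), that of Rpl32 without double knockout vehicle replicate 3 (log2 fold change -0.20, adjusted p = 0.0904) and that of Rpl37a without double knockout vehicle replicate 3 (log2 fold change -0.21, adjusted p = 0.0501). Length correction left Rpl36a, Rpl41 and Rps26 at -0.40 (adjusted p = 2.56e-07), -0.29 (adjusted p = 3.74e-04) and -0.25 (adjusted p = 3.84e-04), and Rps4x at -0.051 (adjusted p = 0.357), no longer called. Rps3a1, a small-subunit protein outside the symbol rule, was higher in double than in Atg5 knockout libraries, at 1975, 1852 and 1842 against 1590.5, 1583 and 1539 CPM. The libraries did not overlap, and the difference was 0.27 (SE 0.0461, adjusted p = 3.87e-05). In leaving out 1 of the 6 libraries compared at a time, the count of called members ran from 4 without double knockout vehicle replicate 3 (31.3% of all genes) to 12 without double knockout vehicle replicate 1 (34.8%). The median was 0.0034 without double knockout vehicle replicate 3.

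Rpl34 was the large-subunit gene with the largest fall in Rnf31 knockout cells. It was at 571, 782 and 561 CPM in control and 418, 409 and 412 CPM in Rnf31 knockout libraries with vehicle, with no overlap. The difference was -0.63 (SE 0.0855, adjusted p = 1.88e-06), and -0.24 (adjusted p = 4.00e-05) with length correction. Leaving out control vehicle replicate 2, the log2 fold change of Rpl34 was -0.46 (adjusted p = 3.31e-06). With TNFα it was lower again in Rnf31 knockout cells, with a log2 fold change of -0.46 (SE 0.0855, adjusted p = 1.95e-04).

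Rpl5 and Rpl11, which with 5S ribosomal RNA form the particle that binds Mdm2 when ribosome assembly fails, were both lower in each knockout with vehicle. Rpl5 had log2 fold changes of -0.34 (SE 0.0773, adjusted p = 7.78e-04), -0.31 (SE 0.0773, adjusted p = 0.00117) and -0.34 (SE 0.0773, adjusted p = 4.73e-04) in Rnf31, Atg5 and double knockout cells, and Rpl11 had log2 fold changes of -0.27 (SE 0.0655, adjusted p = 0.00114), -0.41 (SE 0.0655, adjusted p = 4.83e-06) and -0.38 (SE 0.0655, adjusted p = 2.28e-05). The values of Rpl5 without control vehicle replicate 2 were -0.19 (adjusted p = 0.0143), -0.15 (adjusted p = 0.0251) and -0.19 (adjusted p = 0.00763), and Rpl11 was at -0.18 (adjusted p = 0.0183) in Rnf31 knockout cells. With length correction Rpl11 was at 0.036 (adjusted p = 0.489) in Rnf31 knockout cells, where the call was lost, and at -0.22 (adjusted p = 1.37e-05) and -0.15 (adjusted p = 0.00198) in Atg5 and double knockout cells. Rpl10, which joins the 60S subunit late in its maturation, was at 1281, 1494 and 1269 CPM in control, 1183, 1181 and 1193 CPM in Rnf31, 969.7, 947 and 941 CPM in Atg5 and 997, 944 and 925 CPM in double knockout libraries. All 3 groups were below control, and Rpl10 fell by more in Atg5 and double knockout cells, at -0.50 (SE 0.0476, adjusted p = 5.18e-10) and -0.50 (SE 0.0476, adjusted p = 1.26e-09), than in Rnf31 knockout cells, at -0.19 (SE 0.0475, adjusted p = 0.00217). The difference between these falls was not tested. In Rnf31 knockout cells its length-corrected value was positive, at 0.12 (adjusted p = 0.00277), and without control vehicle replicate 2 it was -0.11 (adjusted p = 0.0317). The length-corrected falls of Rpl10 were -0.32 (adjusted p = 4.48e-10) in Atg5 and -0.27 (adjusted p = 1.83e-08) in double knockout cells. With TNFα, Rpl10 was lower in Atg5 knockout cells at -0.26 (SE 0.0476, adjusted p = 3.31e-05), as was Rpl6 at -0.26 (SE 0.0468, adjusted p = 2.77e-05). Rpl6l had the most negative log2 fold change there, -0.59 (SE 0.311, adjusted p = 0.105), and did not pass. Rpl32 was lower with a log2 fold change of -0.69 (SE 0.0854, adjusted p = 1.19e-07) in double knockout cells and Rpl13a, which takes part in the GAIT complex of interferon-treated cells, with a log2 fold change of -0.54 (SE 0.0835, adjusted p = 2.49e-06) in Atg5 knockout cells.

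The stalk proteins Rplp0, Rplp1 and Rplp2, which recruit translation factors to the ribosome, were called lower in all 3 knockouts with vehicle as counted. With length correction, none of them was called lower in all 3 knockouts. In Atg5 knockout cells with vehicle they had log2 fold changes of -0.33 (SE 0.0536, adjusted p = 4.49e-06), -0.43 (SE 0.0666, adjusted p = 3.27e-06) and -0.28 (SE 0.0881, adjusted p = 0.00682), and in double knockout cells log2 fold changes of -0.43 (SE 0.0536, adjusted p = 1.61e-07), -0.44 (SE 0.0666, adjusted p = 3.24e-06) and -0.39 (SE 0.0882, adjusted p = 5.07e-04). The value of Rplp2 in Atg5 knockout cells was -0.13 (adjusted p = 0.138) without control vehicle replicate 2, and -0.11 (adjusted p = 0.111) with length correction, and its value in double knockout cells -0.24 (adjusted p = 0.00952) and -0.18 (adjusted p = 0.0135). With length correction Rplp1 was at -0.13 (adjusted p = 0.0129) and -0.11 (adjusted p = 0.0474) in Atg5 and double knockout cells, and Rplp0 at -0.28 (adjusted p = 3.49e-08) in double knockout cells. Per length of the longest principal transcript, Rplp1 had the highest level of the family, with a mean over the 8 groups of 3144 CPM per 1000 bases, followed by Rps2 at 2726 and Rps18 at 2636. This order depends on the transcript model taken, since some members have a shorter principal one, such as Rpl32 with 906 and 517 bases. The median member had 1059 CPM per 1000 bases and Rpl6l 1.84. Rps15a, at 130.2, was the next lowest, on its long annotated model.

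The 6 ribosomal protein genes outside the symbol rule (among them Rps3a1, Rpl22l1, Rack1 and Fau) had 5, 5 and 6 members lower and none higher in Rnf31, Atg5 and double knockout cells with vehicle, where 21.5%, 30.7% and 27.2% of all genes were lower, with medians of -0.27, -0.37 and -0.35. The weakest calls in double knockout cells were Rps3a1 at -0.12 (SE 0.0460, adjusted p = 0.0256) and Fau at -0.19 (SE 0.0725, adjusted p = 0.0312). The counts of these 6 genes without control vehicle replicate 2 or with length correction are not given here, so these calls may not hold there. Rpl22l1, the copy of Rpl22, was lower in Rnf31 knockout cells with a log2 fold change of -0.70 (SE 0.0935, adjusted p = 1.35e-06), and Rpl22 with a log2 fold change of -0.39 (SE 0.0836, adjusted p = 3.54e-04). The former was -0.29 (adjusted p = 3.29e-05) with length correction and the latter -0.24 (adjusted p = 0.00621) without control vehicle replicate 2. Rack1, a scaffold on the small subunit, was lower with log2 fold changes of -0.29 (SE 0.0573, adjusted p = 1.76e-04), -0.30 (SE 0.0573, adjusted p = 5.55e-05) and -0.35 (SE 0.0573, adjusted p = 8.29e-06), and with length correction -0.12 (adjusted p = 0.0139), -0.20 (adjusted p = 4.08e-05) and -0.21 (adjusted p = 2.00e-05). Its value in Rnf31 knockout cells without control vehicle replicate 2 was -0.19 (adjusted p = 0.00195). Fau, a fusion of a ubiquitin-like protein with a small-subunit protein, had -0.093 (SE 0.0724, adjusted p = 0.271) in Atg5 knockout cells with vehicle (0.12 with length correction, 0.030 without control vehicle replicate 2) and was higher there with TNFα, with a log2 fold change of 0.27 (SE 0.0726, adjusted p = 0.00204).

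Other gene lists of the pathway were called lower to differing degrees with vehicle. For comparison, 21.5%, 30.7% and 27.2% of all genes were lower and 24.1%, 31.3% and 25.3% higher in Rnf31, Atg5 and double knockout cells. Of 68 ribosome biogenesis genes, 26 were lower and 21 higher in Rnf31 knockout cells with vehicle (median -0.026), 60 were lower and 4 higher in Atg5 knockout cells (median -0.57), and 51 were lower and 3 higher in double knockout cells (median -0.35). With length correction the medians were 0.020, -0.62 and -0.39. Dkc1, the pseudouridine synthase of small nucleolar particles, fell with a log2 fold change of -1.07 (SE 0.0498, adjusted p = 1.54e-16) in Atg5 knockout cells, and Nop56, a core protein of such particles, with a log2 fold change of -1.04 (SE 0.0504, adjusted p = 3.88e-16). A list of 19 tested genes of the TOP message class held mainly translation factors, but also other genes such as Npm1, Nap1l1 and Btf3. Npm1 was counted among the ribosome biogenesis genes too. In Rnf31, Atg5 and double knockout cells, 12, 15 and 14 of the 19 were lower and 3, 2 and 2 higher. Their medians were -0.16, -0.32 and -0.32, and -0.043, -0.24 and -0.20 with length correction. The elongation factor subunit Eef1g fell with a log2 fold change of -0.35 (SE 0.0321, adjusted p = 2.58e-10) in Atg5 knockout cells. The 3 TOP-class genes called higher in Rnf31 knockout cells, against 12 lower, were Eef2 at 0.46, Pabpc1 at 0.41 and Eif4b at 0.39 (log2 fold changes). Of 78 mitochondrial ribosomal protein genes, 62, 64 and 64 were lower and 0, 0 and 1 higher, with medians of -0.33, -0.36 and -0.29, and -0.12, -0.25 and -0.15 with length correction. Of 31 genes of mTORC1 and TOP message control, 9, 9 and 7 were lower and 12, 11 and 13 higher, with medians of 0.068, -0.079 and 0.064. These counts go both ways, and as shares of the list 29.0%, 29.0% and 22.6% were lower and 38.7%, 35.5% and 41.9% higher. Single genes moved far: Ddit4 was higher in Atg5 and double knockout cells, at 3.44 (SE 0.139, adjusted p = 7.52e-18) and 2.46 (SE 0.136, adjusted p = 1.70e-14). Rragc was lower in both, at -0.54 (SE 0.0446, adjusted p = 3.17e-11) and -0.36 (SE 0.0444, adjusted p = 1.34e-07). These log2 fold changes are as counted, and length-corrected values of this list are not given here.

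No member passed the threshold for a response to TNFα in any of the 4 genotypes by edgeR. In control cells the 79 genes had a median log2 fold change of -0.17 with 0 called lower (edgeR), where 0% of all genes were lower and 0.0961% higher. At an unadjusted p under 0.05 there were 59 members, against 21.8% of all genes, and DESeq2 called 15 lower, against 2.25% of all genes. In Rnf31 knockout cells the median was -0.072, with 0 called, 7 at an unadjusted p under 0.05 (all genes 11.9%) and 0 by DESeq2, where 1.17% of all genes were called by edgeR. In Atg5 and double knockout cells the medians were 0.14 and 0.14, with 0 called in either, 37 and 47 at an unadjusted p under 0.05 (all genes 13.1% and 8.83%), and 1 and 0 by DESeq2. There 0% and 0.133% of all genes were called. Over the 13273 other genes with a length, Spearman's rho between the response and length was 0.39 in control and 0.23 in Rnf31 knockout cells. It was -0.41 in Atg5 and -0.24 in double knockout cells. The length-corrected medians in control and Atg5 knockout cells, given in the last section, were smaller in size. Without control vehicle replicate 2 the median in control cells was -0.048 and 1 member was called in Atg5 knockout cells (all genes 0.614%), and without control vehicle replicate 1 the number called in control cells was 48, against 16.3% of all genes.

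The response to TNFα of many members was more positive in Atg5 knockout than in control cells. The Atg5 knockout response minus the control response was positive for 78 of 79 members, with a median of 0.29 and 45 called, against 4.94% of all genes called higher. As differences between log2 fold changes, Rps2 had 0.25 (SE 0.0564, adjusted p = 0.00958), Rps14 0.40 (SE 0.0965, adjusted p = 0.0150) and Rps21 0.53 (SE 0.159, adjusted p = 0.0351), the largest called. The call of Rps21 was lost without control vehicle replicate 2, control TNFα replicate 1, control TNFα replicate 3, Atg5 knockout vehicle replicate 1, Atg5 knockout vehicle replicate 2, Atg5 knockout vehicle replicate 3, Atg5 knockout TNFα replicate 1 or Atg5 knockout TNFα replicate 2 (log2 fold change 0.33 to 0.54, adjusted p = 0.0544 to 0.151), and that of Rps14 without Atg5 knockout TNFα replicate 2 (log2 fold change 0.36, adjusted p = 0.0547). The 3 response differences share the control libraries. For the double knockout the median was 0.31 with 6 called by edgeR, against 0.384%, and 54 by DESeq2, against 3.44%, and for the Rnf31 knockout 0.090 with 0 called, against 0.00739%. The differences called in the double knockout ran from 0.27 (SE 0.0609, adjusted p = 0.0391) for Rps26 to 0.55 (SE 0.139, adjusted p = 0.0478) for Rps27. The calls of Rps26 and Rps27 were each lost without 1 of 8 of the 12 libraries, with adjusted p from 0.0697 to 0.127 and from 0.0738 to 0.166. In the Rnf31 knockout 1 member passed at an unadjusted p under 0.05, against 12.1% of all genes, and 0 by DESeq2. Without control vehicle replicate 2 the calls were 6 for Atg5 and 0 for double knockout, where 0.414% and 0.0148% of all genes were called higher. Without Atg5 knockout TNFα replicate 2 the Atg5 count was 1 (all genes 2.20%), and without control vehicle replicate 1 the double knockout count was 69 (all genes 13.2%). Leaving out some single libraries of the Rnf31 or Atg5 knockouts, which share only the estimate of the spread, gave 1 to 3 calls for the double knockout (all genes 0.473% to 0.983%). With length correction 0 members were called in either, where 0.809% and 0.0150% of all genes were, and the medians were 0.045 and 0.11.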

How the data were processed

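RNA sequencing of 24 libraries in 8 groups of 3 was analysed from the deposited table of estimated counts per gene. The submitters' processing notes list RSEM, STAR, DESeq2, mm10 and GRCm38 without their roles. The unit was taken from the values, which were whole numbers, so rounding changed 0 values. A row without a gene name, 0.14% of counts on average, was left out. Neither strandedness nor the treatment of reads shared by near-identical genes is stated in the labels, so Rpl36a and Rpl36al, Rps27 and Rps27l, and pseudogene copies are uncertain splits.

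Members and gene lists were chosen with earlier results of these data known. Counts were scaled by TMM, filtered with filterByExpr (13527 genes kept) and tested with edgeR 4.0.16 in R 4.3.3 (quasi-likelihood, 8 group means, Benjamini-Hochberg over all genes tested, threshold 0.05). Levels are CPM from edgeR. The length correction entered, as an offset per library, a lowess trend (span 0.3) of each library's log2 deviation over the length of the longest principal transcript in GENCODE. Alternatives were other scalings, filters, DESeq2 1.42.0, a replicate block, only the groups compared, and each library left out. The named genes are a list fixed by symbol, the 3 most changed members in each direction and the 2 with the smallest p per comparison, those extreme in length or level, up to 4 of each other list with the smallest p, and genes with limits to state. Values of some single genes are not reported here. Scripts were tested on simulated data.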

Additional observations from a re-analysis of the deposited data

Results flagged for a closer look

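The difference between the TNFα response of Atg5 knockout cells and that of control cells passed the threshold for 45 members, all more positive in Atg5 knockout cells. The same difference for double knockout cells passed for 6 members. Both were tested as an interaction between genotype and treatment in edgeR. They share the control libraries. Without control vehicle replicate 2 the counts were 6 and 0, and with length correction 0 and 0.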

How the results depend on the processing

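Over the counts of members called and their medians, 420 values stayed within 1.5 times the count or within the spread of the median under the alternatives, and 120 moved. The SD of the members' median over libraries of a group was 0.0945 (log2). Scalings moved the median of all genes by less than 0.05. Depth does not limit the abundant members, but Rpl6l had 18 to 83 counts a library, and 3 libraries a group limit every test. The cause of the shifts below was not tested.

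In the TNFα responses and their differences, DESeq2 called 15 members in control, 1 in Atg5 knockout, and 54 for the double knockout response difference. That difference had 2 calls with scaling factors made without the members, 2 without the low-count filter, and 56 with the replicate block. Fitting only the groups compared gave 4 calls for the TNFα response of Rnf31 knockout, 2 for that of Atg5 knockout, 41 for Atg5 knockout with TNFα, 37 for double knockout with TNFα, 8 for the Atg5 and 0 for the double knockout response difference. Same-numbered libraries correlated weakly: over 84 such pairs the correlation of deviations ran from -0.098 to 0.079, none over 0.1. In 36 of them the library correlated best with its own number. They included every pair of control TNFα libraries with control vehicle, Rnf31 knockout and Atg5 knockout libraries, and few with double knockout libraries. The correlations of the former were only 0.0021 to 0.049. The share of the 84 pairs that unrelated numbering would give was not worked out. Whether libraries of the same number shared a batch cannot be told from these values. The replicate block moved no other count of calls by over 1.5 times.

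Length settings were 5, 4 of them added after seeing the data. With the length correction, the members called numbered 41 for Rnf31 knockout with vehicle, 17 for double against Atg5 knockout, 31 for Rnf31 knockout with TNFα, 41 for Atg5 knockout with TNFα, 0 for Atg5 response difference and 0 for double knockout response difference. The medians there were -0.025 for TNFα response of control, 0.033 for TNFα response of Atg5 knockout, -0.051 for Rnf31 knockout with vehicle, -0.17 for Atg5 knockout with vehicle, -0.18 for double knockout with vehicle, -0.047 for Rnf31 knockout with TNFα, 0.045 for Atg5 response difference and 0.11 for double knockout response difference. With the shortest principal transcript, the members called numbered 1 for TNFα response of Rnf31 knockout, 45 for Rnf31 knockout with vehicle, 15 for double against Atg5 knockout, 34 for Rnf31 knockout with TNFα, 51 for Atg5 knockout with TNFα, 44 for double knockout with TNFα, 0 for Atg5 response difference and 0 for double knockout response difference. The medians there were -0.034 for TNFα response of control, 0.041 for TNFα response of Atg5 knockout, -0.073 for Rnf31 knockout with vehicle, -0.22 for Atg5 knockout with vehicle, -0.22 for double knockout with vehicle, -0.079 for Rnf31 knockout with TNFα, -0.016 for Rnf31 response difference, 0.068 for Atg5 response difference and 0.12 for double knockout response difference. With the trend fitted without the members, the members called numbered 40 for Rnf31 knockout with vehicle, 17 for double against Atg5 knockout, 31 for Rnf31 knockout with TNFα, 42 for Atg5 knockout with TNFα, 37 for double knockout with TNFα, 0 for Atg5 response difference and 0 for double knockout response difference. The medians there were -0.024 for TNFα response of control, 0.034 for TNFα response of Atg5 knockout, -0.051 for Rnf31 knockout with vehicle, -0.18 for Atg5 knockout with vehicle, -0.19 for double knockout with vehicle, -0.049 for Rnf31 knockout with TNFα, 0.047 for Atg5 response difference and 0.11 for double knockout response difference. With the longest annotated transcript, the members called numbered 16 for double against Atg5 knockout, 38 for Rnf31 knockout with TNFα, 39 for Atg5 knockout with TNFα, 1 for Atg5 response difference and 0 for double knockout response difference. The medians there were -0.047 for TNFα response of control, 0.036 for TNFα response of Atg5 knockout, -0.099 for Rnf31 knockout with vehicle, -0.21 for Atg5 knockout with vehicle, -0.22 for double knockout with vehicle, -0.081 for Rnf31 knockout with TNFα, 0.083 for Atg5 response difference and 0.15 for double knockout response difference. With length correction and without control vehicle replicate 2, the members called numbered 27 for Rnf31 knockout with vehicle, 20 for double against Atg5 knockout, 35 for Rnf31 knockout with TNFα, 46 for Atg5 knockout with TNFα, 44 for double knockout with TNFα, 0 for Atg5 response difference and 0 for double knockout response difference. The medians there were -0.011 for TNFα response of control, 0.032 for TNFα response of Atg5 knockout, -0.022 for Rnf31 knockout with vehicle, -0.15 for Atg5 knockout with vehicle, -0.17 for double knockout with vehicle, -0.047 for Rnf31 knockout with TNFα, -0.030 for Rnf31 response difference, 0.034 for Atg5 response difference and 0.089 for double knockout response difference.

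Rpl10 in Rnf31 knockout with vehicle was at 0.12, 0.092, 0.11 and 0.10 under the length settings that turned its direction. Rpl11 in Rnf31 knockout with vehicle was at 0.036, 0.024 and 0.034 under the length settings that turned its direction. Rps27 in Rnf31 knockout with vehicle was at 0.0023 and 0.0054 under the length settings that turned its direction. Fau in Atg5 knockout with vehicle was at 0.12, 0.11 and 0.13 under the length settings that turned its direction. Rpl36a in Atg5 knockout with vehicle was at 0.27, 0.13, 0.26, 0.17 and 0.21 under the length settings that turned its direction. Rps26 in double knockout with vehicle was at 0.010 under the length settings that turned its direction. Rps27 in double knockout with vehicle was at 0.098, 0.080 and 0.076 under the length settings that turned its direction.

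Leaving out 1 of the libraries compared at a time, the members called ran from 9 to 17 for Atg5 knockout with TNFα, 4 to 12 for double against Atg5 knockout, 11 to 25 for double knockout with TNFα, 1 to 68 for Atg5 response difference, 0 to 69 for double knockout response difference and 0 to 48 for TNFα response of control. The medians ran from -0.43 to -0.23 for Atg5 knockout with vehicle, -0.48 to -0.30 for double knockout with vehicle, 0.18 to 0.35 for Atg5 response difference, 0.19 to 0.38 for double knockout response difference, -0.031 to 0.15 for Rnf31 response difference, -0.42 to -0.24 for Rnf31 knockout with vehicle and -0.23 to -0.048 for TNFα response of control.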
